A study of Mus musculus with 8 samples.

Results

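The genes of MHC class II antigen presentation were followed in regulatory T cells (Tregs): the chain genes H2-Aa, H2-Ab1 and H2-Eb1, the invariant chain Cd74, the transactivator Ciita, and the H2-DM chains H2-DMa and H2-DMb1. Every probe annotated to one of these 7 genes was taken, which gave 11 of the 25697 probes on the array. Of these, 10 probes, for 6 genes, were detected on enough arrays to be tested, and the Ciita probe was not. The samples were total RNA of Tregs sorted as CD4+GFP+ cells from C57BL/6 mice that carry a FoxP3-GFP reporter, in which GFP marks cells expressing the Treg transcription factor. RNA was hybridised to 8 Illumina bead arrays of 1 colour, 4 titled G-CSF, for granulocyte colony-stimulating factor, and 4 titled Naive. The treatment label of the Naive arrays is saline, so it is not settled whether those mice were injected. No dose, time, age or sex is given in the labels. Whether the 4 arrays of a group stand for different animals is not labelled either, so the p-values speak only of variation between arrays, part of which may be technical.

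MHC class II molecules are heterodimers of an alpha and a beta chain that show peptides from endocytosed protein to CD4 T cells. In the mouse the I-A molecule pairs the products of H2-Aa and H2-Ab1, and the I-E molecule needs the product of H2-Eb1 with an alpha chain that C57BL/6 mice do not make, so that H2-Eb1 RNA there gives no surface I-E. The invariant chain, encoded by Cd74, guards the groove until endosomal proteases trim it, and H2-DM then exchanges the remaining fragment for peptide. Transcription of these genes depends on CIITA, which is drawn to RFX, CREB and NF-Y proteins on a conserved promoter module of X and Y boxes. Dendritic cells, B cells and activated macrophages express the genes strongly, whereas mouse T cells are known to express the chain genes little.

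The promoter module is shown because 3 of the members that varied together hold the letters searched for it. It also lets their regulatory sequence be read beside their values. RefSeq promoter sequence of build GRCm38.p6 was held for H2-Aa, H2-Eb1, H2-DMa and H2-DMb1, and H2-Ab1, Cd74 and Ciita are named only. The 130 bases before the annotated start are given 5′ to 3′ on the strand of the gene, with capitals first for the X-box letters and then for the Y-box letters ATTGG.
H2-Aa, chr17:34287824-34287953, minus strand: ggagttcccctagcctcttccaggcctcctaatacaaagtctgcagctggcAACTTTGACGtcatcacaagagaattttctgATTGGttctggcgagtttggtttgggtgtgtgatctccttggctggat
H2-Eb1, chr17:34305737-34305866, plus strand: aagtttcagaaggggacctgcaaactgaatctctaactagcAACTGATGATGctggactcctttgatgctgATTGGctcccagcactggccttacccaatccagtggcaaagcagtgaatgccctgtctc
H2-DMb1, chr17:34153061-34153190, plus strand: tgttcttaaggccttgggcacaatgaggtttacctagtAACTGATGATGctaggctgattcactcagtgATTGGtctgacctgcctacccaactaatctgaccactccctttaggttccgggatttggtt
The X-box letters searched were AACT, 1 or 2 free bases, and then TGANG, where N is any base, on both strands, chosen after the members' own sequences had been read. Between the end of the X-box letters and the Y-box letters lay 21 bases in H2-Aa, 19 in H2-Eb1 and 20 in H2-DMb1. Of 32851 promoter windows of 250 bases, 33.8% held ATTGG, 1.36% the X-box letters and 0.0609%, or 20 windows, the X-box letters followed within 30 bases by ATTGG. The 3 members above were among those 20. H2-DMa has 2 annotated starts, and neither window held the X-box letters, while 1 held ATTGG. Because the X-box letters were chosen with the sequences known, their presence or absence does not decide whether a promoter carries the module.

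Facts of the arrays that bear on these values come first. Between 9588 and 10519 probes were detected per array, and median intensities before normalisation ran from 117.8 to 125.8 except on G-CSF 3 (180.8) and G-CSF 4 (145). The detection p-values stood beside the intensities of the other group. For none of the 8 arrays did they follow the order of the intensities they stood beside, whereas each set followed without exception those of the equally numbered array in the other group. The labels of the intensities were kept, and every direction between groups given below turns if those are the columns out of place. Naive 1 had the lowest limma array weight, 0.336, with G-CSF 1 and G-CSF 2 near it at 0.438 and 0.476 and the others at 0.848 to 3.02. Because several members were highest on Naive 1, differences and correlations are also given without it. All levels are background-corrected, quantile-normalised log2 intensities, and levels of different probes are not comparable. The 9 Treg and 9 T cell markers on the array were all detected on enough arrays to be tested. With no array of other cells to compare, this does not measure the purity of the sort. Foxp3, the Treg transcription factor, read 13.30 ± 0.20 in G-CSF and 12.81 ± 0.70 in Naive arrays (SD, n = 4 each).

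The class II chain genes were high on 1 Naive array, intermediate on a second, and low on all others. H2-Aa, the I-A alpha chain, read 8.35, 7.63, 8.02 and 7.61 on G-CSF 1 to 4 and 10.54, 9.21, 8.004 and 7.76 on Naive 1 to 4. Naive 3 and Naive 4 lay within the range of the G-CSF arrays, so the groups overlapped, and Naive 1 stood 4.54-fold above the highest G-CSF array. The G-CSF minus Naive difference was -0.98 ± 0.51 (SE, n = 4 each) on the log2 scale, with an adjusted p of 0.257 by limma.

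H2-Ab1, the I-A beta chain, was measured by 4 probes. The brightest, ILMN_1226525, read 8.82, 8.05, 9.08 and 8.57 on the G-CSF arrays and 11.27, 10.13, 8.90 and 8.70 on the Naive arrays. The order was that of H2-Aa at the top, with Naive 1 then Naive 2 highest, and Naive 3 and 4 again within the G-CSF range. The difference was -1.12 ± 0.49 (SE; limma adjusted p = 0.189). Probe ILMN_2631423 was the one probe of the 10 whose groups did not overlap, where 13.6% of all tested probes did not. It read 8.18, 6.80, 7.76 and 6.63 on the G-CSF arrays and 10.65, 9.64, 8.45 and 8.27 on the Naive arrays, a difference of -1.91 ± 0.51 (SE; limma adjusted p = 0.0689). Its lowest Naive value was thus just above its highest G-CSF value, that of G-CSF 1, and without G-CSF 1 its adjusted p was 0.0416. Without that array 712 of all 10205 tested probes were called by limma, against 224 with all arrays. Leaving out any of the other arrays gave 0.0626 (without Naive 1) to 0.203 (without G-CSF 4). The other H2-Ab1 probes differed by -1.08 (ILMN_2607675, limma adjusted p = 0.194) and -1.30 (ILMN_2913716, limma adjusted p = 0.120), and both had Naive 1 and Naive 2 on top.

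H2-Eb1, the I-E beta chain, read 8.28, 7.48, 7.95 and 7.61 on the G-CSF arrays and 10.64, 9.33, 7.92 and 7.91 on the Naive arrays. Only Naive 1 and Naive 2 exceeded the G-CSF range, Naive 1 by 5.11-fold over the highest G-CSF array. The difference was -1.12 ± 0.52 (SE; limma adjusted p = 0.212). H2-Eb1 tracked H2-Aa closely: the difference between their log2 values moved only between -0.15 and 0.14 over the 8 arrays, while each moved by about the same amount between its lowest and highest array, 3.15 for H2-Eb1 and 2.93 for H2-Aa.

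**Figure D1:**
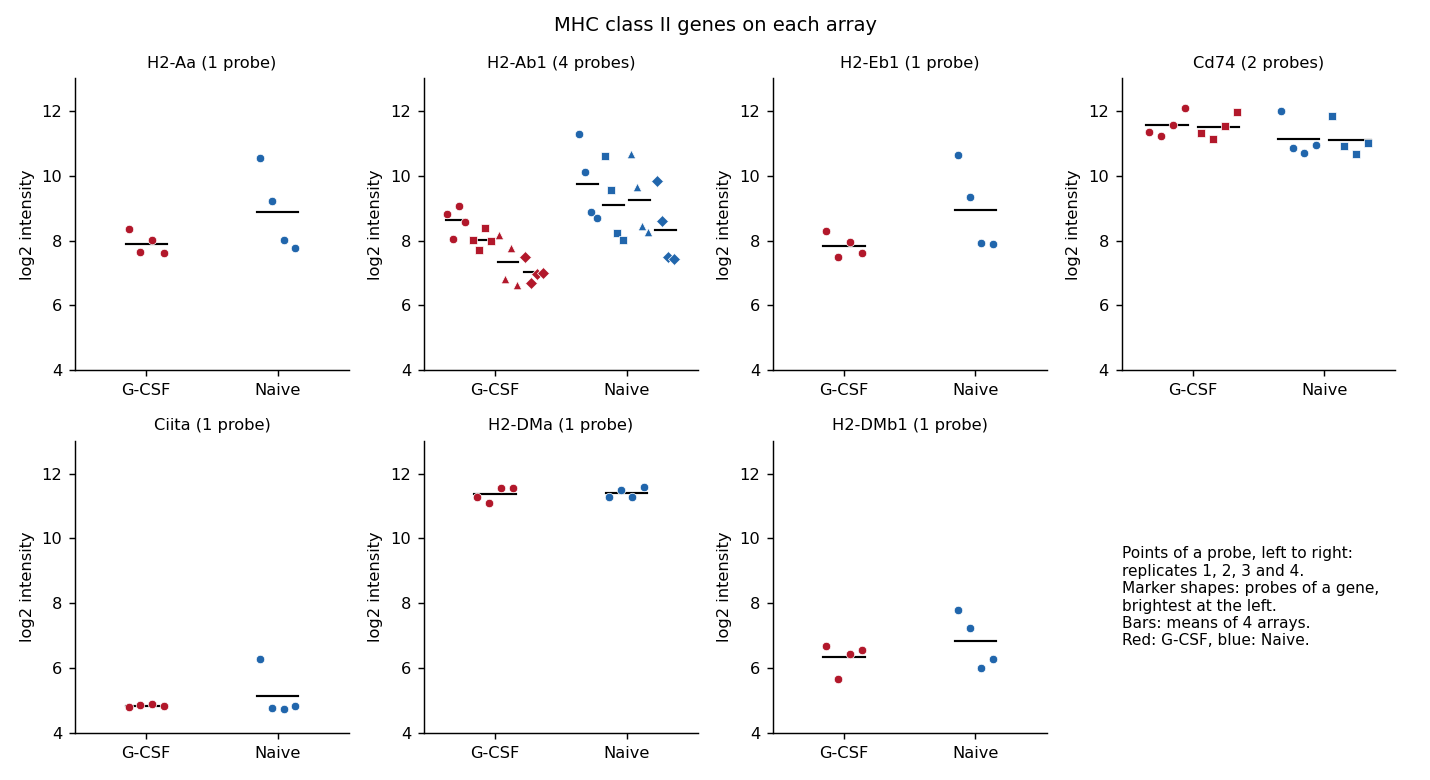
Log2 intensity of each MHC class II probe on the 8 arrays, with red points for G-CSF, blue points for Naive, replicates 1 to 4 from left to right within a probe, and bars for the mean of 4 arrays. H2-Aa, H2-Ab1 and H2-Eb1 are highest on Naive 1 (10.54, 11.27 and 10.64 for the brightest probes) and next on Naive 2, while H2-DMa stays between 11.10 and 11.58.

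Cd74, the invariant chain, did not share this pattern. Probe ILMN_1221817 read 11.36, 11.21, 11.56 and 12.08 on the G-CSF arrays and 12.01, 10.84, 10.69 and 10.94 on the Naive arrays. The other 3 Naive arrays lay below every G-CSF array, but Naive 1 was second only to G-CSF 4, so the groups overlapped. The difference was 0.43 ± 0.29 (SE; limma adjusted p = 0.370) with all arrays and 0.73 ± 0.20 (SE; limma adjusted p = 0.0527) without Naive 1. The second Cd74 probe, ILMN_3089584, gave 0.37 (limma adjusted p = 0.383) and, without Naive 1, 0.62 (limma adjusted p = 0.0766). Without G-CSF 4 the differences of these probes shrank to 0.25 and 0.22 (limma adjusted p = 0.701 and 0.715). Without the 2 brightest arrays, G-CSF 3 and G-CSF 4, they were 0.16 and 0.12 (limma adjusted p = 0.867 and 0.888). The direction is opposite to that of the chains on both probes.

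The DM chains differed from each other. H2-DMa, the DM alpha chain, read 11.28, 11.10, 11.57 and 11.54 on the G-CSF arrays and 11.27, 11.50, 11.26 and 11.58 on the Naive arrays. It moved by no more than 1.40-fold over all 8 arrays, Naive 1 included. The difference of -0.03 ± 0.15 (SE; limma adjusted p = 0.916) was smaller than its standard error, and its sign turned under several settings. H2-DMb1, the DM beta chain, read 6.67, 5.65, 6.44 and 6.55 on the G-CSF arrays and 7.80, 7.23, 6.00 and 6.27 on the Naive arrays. Like the I-A and I-E chains it was highest on Naive 1 and Naive 2 and elsewhere overlapped. Its difference was -0.50 ± 0.37 (SE; limma adjusted p = 0.423), and it was detected on 3 of 4 arrays in each group. H2-DMb1 has a near-identical neighbour, H2-DMb2, whose own probe was detected on 0 of 8 arrays, and the files do not show whether its RNA binds the H2-DMb1 probe.

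Ciita, the transactivator, was above background on Naive 1 alone. Its log2 intensity there was 6.29, with a detection p-value of 0.00501. It read 4.73 to 4.82 on the other Naive arrays and 4.79 to 4.90 on the G-CSF arrays, and detection p-values on those 7 arrays ran from 0.307 to 0.602. The array on which the transactivator was detected was the array on which H2-Aa, H2-Ab1, H2-Eb1 and H2-DMb1 were highest. No fold is given between the groups, since the probe was not well above background on any G-CSF array.

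Over the 10 tested probes, the differences between the groups did not pass the adjusted threshold. By limma, 0 of the 10 tested probes passed an adjusted p under 0.05, where 2.20% of all 10205 tested probes did, 1.24% lower and 0.951% higher in G-CSF. At an unadjusted p under 0.05 there were 4 of 10, all of H2-Ab1, against 24.9% of all probes. The median difference of the 10 probes was -1.03, against -0.01 over all tested probes, with 8 lower and 2 higher. Those 10 probes are not independent, since 4 share H2-Ab1 and 2 share Cd74. Without Naive 1 the median difference was -0.49 and again 0 of 10 were called, while the differences of the brightest chain probes were -0.42 for H2-Aa, -0.61 for H2-Ab1 and -0.55 for H2-Eb1.

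**Figure D2:**
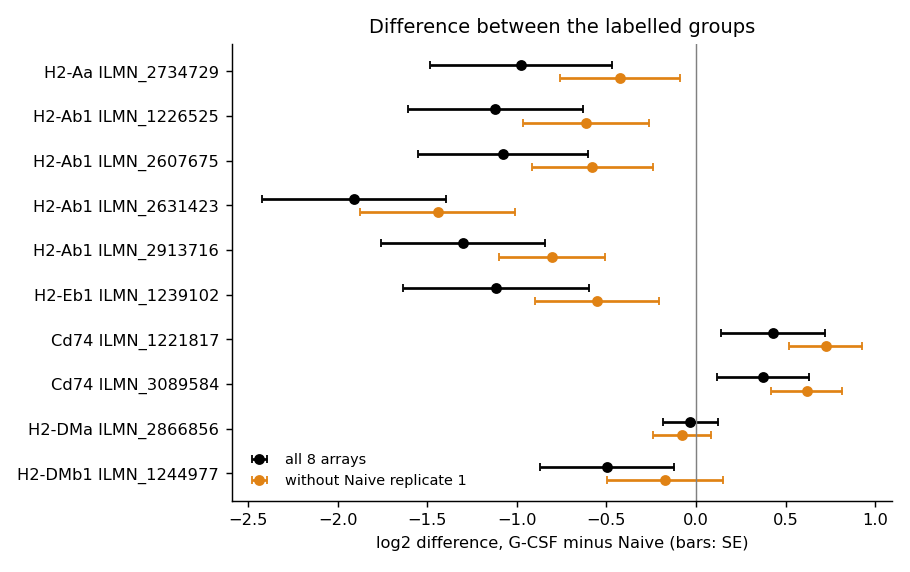
Log2 difference between G-CSF and Naive arrays for each tested MHC class II probe, with SE bars, from all 8 arrays (black) and without Naive 1 (orange). Chain differences shrink without Naive 1, that of H2-Aa from -0.98 to -0.42, while Cd74 moves from 0.43 to 0.73.

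The spread between arrays of a group was, for the chain genes, among the largest of all tested probes, and it lay mostly in the Naive arrays. The SD of the 4 Naive arrays was 1.12 to 1.31 for the 6 chain probes, while that of the G-CSF arrays was 0.28 to 0.44 for 5 of them and 0.75 for H2-Ab1 ILMN_2631423. The 6 chain probes had within-group SDs between 0.83 and 0.96 on the log2 scale, which placed each of them in percentile 99.6 to 99.8 of all tested probes. H2-DMb1 lay at percentile 98.5, the brightest Cd74 probe at 93.3, and H2-DMa at 28.3. Without Naive 1 the chain probes had within-group SDs of 0.49 to 0.75, at percentiles 95.2 to 99.7, H2-DMb1 lay at 96.9, the brightest Cd74 probe at 71.3 and H2-DMa at 40.4. The median over the 10 probes with all arrays was 0.85, against 0.26 over all tested probes.

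**Figure D3:**
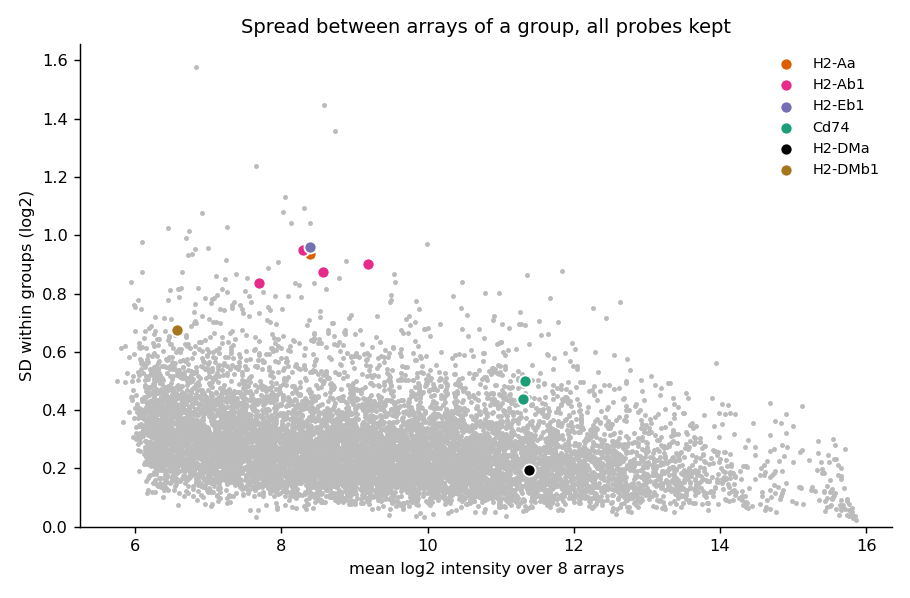
Within-group SD on the log2 scale against mean log2 intensity for the 10205 tested probes (grey), with the MHC class II probes in colour. The 6 chain probes lie between 0.83 and 0.96, near the top at their intensity, and H2-DMa lies among the bulk at 0.20.

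Across the 8 arrays the chain probes varied together. Pearson's r over 8 arrays was 0.91 to 1.00 for the 15 pairs of H2-Aa, H2-Ab1 and H2-Eb1 probes, 0.81 to 0.99 without Naive 1, and 0.38 to 0.95 on the 6 arrays left without Naive 1 and Naive 2. Some of these pairs join probes of H2-Ab1 only, and the lowest value of each range is from such a pair. Between probes of different chain genes the lowest values were 0.92, 0.86 and 0.49. H2-DMb1 gave 0.81 to 0.93 with the chain probes on 8 arrays, 0.60 to 0.84 without Naive 1 and 0.17 to 0.62 on those 6. Cd74 gave -0.07 to 0.26 with the chains on 8 arrays and -0.73 to -0.28 without Naive 1, but 0.45 to 0.71 once each group's mean was removed. H2-DMa gave -0.15 to 0.05 on 8 arrays and 0.15 to 0.48 without Naive 1. All probes of an array share its RNA sample and its normalisation, so these coefficients describe the 8 arrays only. In the order of RefSeq on chromosome 17, H2-DMa, H2-DMb2, H2-DMb1, Psmb9, Tap1, Psmb8, Tap2, H2-Ob, H2-Ab1, H2-Aa and H2-Eb1 are successive protein-coding genes. H2-Ob, next to H2-Ab1 and encoding the DO beta chain, had an r of -0.54 with the mean of the chains on 8 arrays and 0.22 without Naive 1. The proteasome subunit genes gave -0.26 and 0.07 for Psmb9, and 0.10 and 0.75 for Psmb8.

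Genes outside the family with the most similar profile were sought by Pearson's r over the 8 arrays with the mean of H2-Aa, H2-Ab1, H2-Eb1 and Cd74, among 7103 genes. The 10 nearest were Prelid3b (0.98), Hk2 (0.96), Pdlim4 (0.93), Ccnd1 (0.93), Syncrip (0.92), Mcm4 (0.90), D3Ertd751e (0.90), Ly86 (0.90), Oser1 (0.89) and Lpin1 (0.88). Since Cd74 did not share the pattern of the chains, this mean mixes unlike patterns. With the mean of the chains alone, Prelid3b gave 0.98, Pdlim4 0.95, Hk2 0.92, and Mcm4 and Ly86 0.85 each. Genes were not ranked by the chains alone. All 10 were highest on Naive 1, and in 9 of them Naive 2 came second. The likeness rests largely on those arrays for many: on the other 6 arrays Hk2, which encodes hexokinase 2, had an r of 0.57, Ccnd1, cyclin D1, one of 0.34, Ly86, whose product MD-1 pairs with the B cell and myeloid receptor RP105, one of 0.48, and Pdlim4 one of -0.18. Prelid3b kept 0.99 but moved by only 0.19 in all, and Mcm4, a subunit of the replicative helicase, kept 0.81.

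Genes that act beside the class II molecules were read in 3 lists. Of 14 accessory genes on the array, 8 were tested, and 1 was called by limma on its brightest probe and 1 on a dimmer probe, both lower in G-CSF. Of all tested probes 2.20% were called, 1.24% of them lower in G-CSF as a share of all. Lgmn, the asparaginyl endopeptidase legumain, which cleaves antigen and invariant chain, read 9.24, 9.07, 9.33 and 8.96 on the G-CSF arrays and 9.89, 10.35, 9.92 and 10.10 on the Naive arrays. Its groups did not overlap and Naive 1 was not apart, with a difference of -0.92 ± 0.15 (SE; limma adjusted p = 0.0419), called with all arrays but above 0.05 in 12 of 22 alternative settings (range 0.00173 to 0.246), among them leaving out G-CSF 2, 3 or 4 or Naive 2, 3 or 4 (0.0660 to 0.150). Cd86, a costimulatory ligand of CD28 and CTLA-4, was called on its dimmest tested probe, ILMN_1216386, which read 7.86, 7.11, 7.22 and 6.96 on the G-CSF arrays and 8.13, 7.99, 8.37 and 8.27 on the Naive arrays. The groups did not overlap there, with a difference of -0.90 ± 0.20 (SE; limma adjusted p = 0.0486), above 0.05 in 14 of 22 alternative settings (range 0.00166 to 0.261), again among them leaving out G-CSF 2, 3 or 4 or Naive 2, 3 or 4. The other Cd86 probes differed by -0.14 (the brightest, limma adjusted p = 0.527) and -0.16 (limma adjusted p = 0.447), so the probes of Cd86 disagree in size. Cd83, which protects surface class II from ubiquitin-driven turnover, differed by 0.72 (limma adjusted p = 0.0832). Ctss, the protease cathepsin S that trims the invariant chain, differed by 0.68 (limma adjusted p = 0.101). The DO chains, which restrain DM, were named after their values were seen: H2-Oa differed by -0.21 (limma adjusted p = 0.411) and H2-Ob by -0.05 (limma adjusted p = 0.863). H2-Eb2, a second E beta gene, was detected on Naive 1 only, as Ciita was. By their brightest probes, the median difference of the 8 accessory genes was -0.02.

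Of 12 genes of the class II transcription machinery on the array, 9 were tested and 0 were called by limma, with 2 at an unadjusted p under 0.05. The shares of all tested probes were 2.20% and 24.9%. Prdm1, whose product BLIMP-1 represses Ciita in plasma cells, differed by 0.68 (limma adjusted p = 0.157), and Kat2b, a histone acetyltransferase that binds CIITA, by -0.47 (limma adjusted p = 0.162). Rfxap, a subunit of the RFX complex, differed by 0.25 (limma adjusted p = 0.306), and this gene was named after its values were seen. Rfx5 and Nfya, encoding subunits of RFX and NF-Y, were detected on 0 of 8 arrays, while every chain gene was detected on all 8. Crebbp was not analysed here. The median difference of the 9 genes was -0.06.

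Class I and peptide loading genes serve the other antigen presentation pathway. Of 18 on the array, 17 were tested and 0 were called by limma, with 5 at an unadjusted p under 0.05. Over all tested probes the shares were 2.20% and 24.9%. Psme2 and Psme1, the beta and alpha subunits of the proteasome activator PA28, differed by -0.57 (limma adjusted p = 0.0848) and 0.36 (limma adjusted p = 0.115). Nlrc5, the class I counterpart of Ciita, was named after its values were seen. It read 11.19, 11.28, 11.12 and 11.31 on the G-CSF arrays and 11.42, 9.81, 10.22 and 10.02 on the Naive arrays, so that Naive 1 lay with the G-CSF arrays as it did for Cd74, and its difference was 0.85 (limma adjusted p = 0.116). The median within-group SD percentile was 48.8 for class I and peptide loading genes, 28.4 for accessory genes and 42.3 for the transcription machinery.

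**Figure D4:**
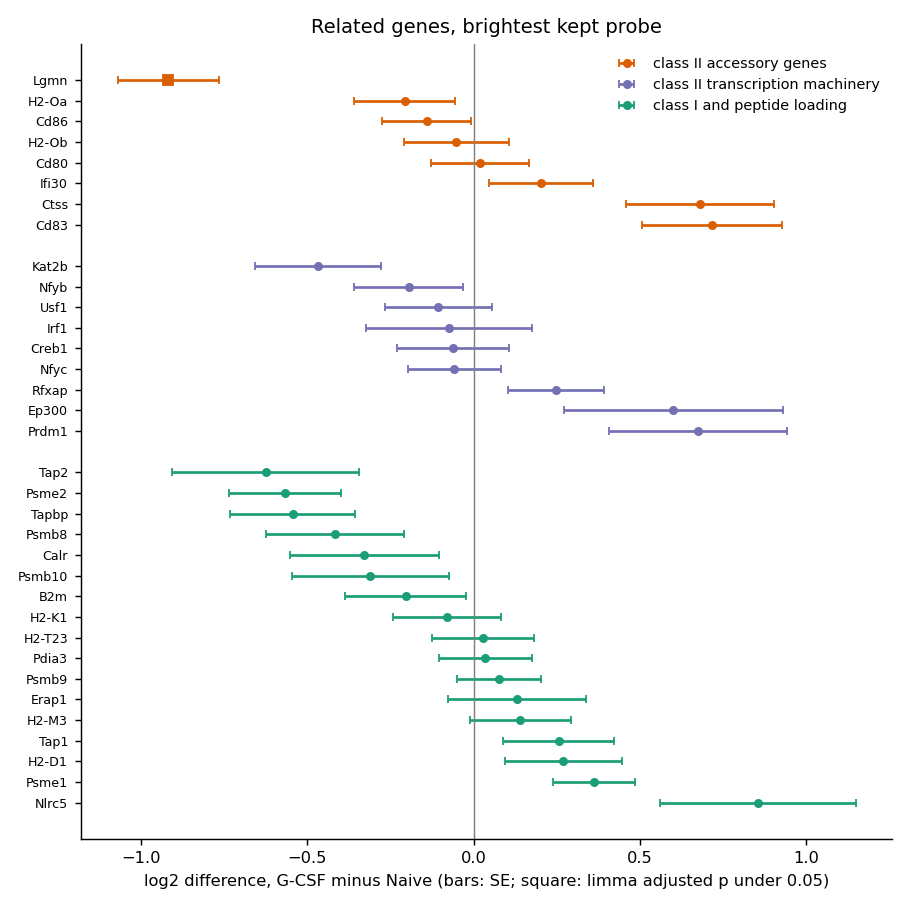
Log2 difference between G-CSF and Naive arrays, with SE bars, for the tested genes of 3 related lists, each by its brightest tested probe. Lgmn (square), at -0.92, is the 1 gene with a limma adjusted p under 0.05 on that probe, and the dimmer Cd86 probe at -0.90 is not plotted.

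Markers of other cell types were read on the same arrays, since antigen-presenting cells carry far more class II RNA than T cells. In bulk RNA a change in the number of such cells and a change in RNA per cell cannot be told apart. Of 12 dendritic cell markers on the array, 8 were detected on 0 of 8 arrays, among them Itgax, Flt3 and Zbtb46. Their summed intensity was 2780 to 3528 in G-CSF and 3217 to 3308 in Naive arrays, with 3217 on Naive 1, the lowest of its group. That sum is carried by Bst2, Ccr7 and Irf8, the brightest and nearest to a difference. These differed by -0.08, -0.09 and 0.14 (limma adjusted p = 0.807, 0.740 and 0.603). Siglech, dimmer but also tested, was highest on Naive 1, at 7.61. It read 6.23 to 7.02 on the other Naive arrays and 6.60 to 7.32 on the G-CSF arrays (difference 0.05, limma adjusted p = 0.918). Siglech was named after its values were seen, and the part of dendritic cells in the class II values was not tested. Of 12 B cell markers, 8 were detected on no array, among them Ms4a1, Pax5, Ebf1 and Blk. Their sum was 3507 to 4132 in G-CSF and 3992 to 5439 in Naive arrays, again with Naive 1 the lowest of its group, at 3992, and it is carried by Fcmr and Cd79b. Cd79b, which encodes a B cell receptor chain, and Fcmr, the IgM Fc receptor gene, were the 2 that were tested, with differences of -0.07 (limma adjusted p = 0.775) and -0.47 (limma adjusted p = 0.0991). Some dim B cell markers, but not all, went the other way within the Naive arrays. Cd79a, the partner chain, was detected on G-CSF 4 and Naive 1 (6.08 and 6.14), and Cd22, an inhibitory receptor, on G-CSF 2, G-CSF 4 and Naive 1 (7.01, 6.79 and 6.18, against 5.13 to 5.37 on the other Naive arrays). Ms4a1, which encodes CD20, and Fcrla were not detected but were highest on Naive 1, at 5.79 and 6.06. Fcer2a and Blnk, also detected on no array, were by little the highest of the Naive arrays there (5.13 and 4.82). Pax5, Ebf1, Blk and Cr2, detected on no array either, were not, and Ebf1 was lowest there (4.94, against 5.12 to 5.42). These dim genes were named after their values were seen, and the part of B cells in the class II values was not tested.

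Several macrophage and monocyte markers, but not all, were highest on Naive 1, as the chain genes were. Of 14 on the array, 8 were tested and 4 were detected on no array (Fcgr1, Ccr2, Itgam and Spi1). Of the 8, 6 were highest on Naive 1, and Lyz1 and Lyz2 were not. Also highest on Naive 1 were 4 of 9 transcription machinery genes, 3 of 9 Treg markers, 2 of 17 class I genes, 1 of 9 T cell markers and 1 of 4 dendritic cell markers. Among the 8 accessory genes 0 were, and 0 were among the tested B cell, neutrophil, CD8 and NK, and erythroid markers. The share over all tested probes was not counted. The summed intensity of the macrophage and monocyte markers was 9587 to 11067 in G-CSF arrays, 9286 on Naive 1 and 3813 to 8182 on the other Naive arrays. Naive 1 thus lay below every G-CSF array. The sum was led by the lysozyme genes Lyz1, whose groups did not overlap (difference 0.91, limma adjusted p = 0.0700), and Lyz2 (0.60, limma adjusted p = 0.275). Adgre1, Tyrobp, C1qb and C1qc were named after their values were seen. Adgre1, the macrophage marker F4/80, read 8.99 on Naive 1 and 6.49 to 7.50 elsewhere, and Tyrobp, a myeloid signalling adaptor, 8.03 against 6.53 to 6.85. Naive 2, the second array for the chains, read 7.09 for Adgre1 and 6.75 for Tyrobp, within the range of the G-CSF arrays. Cd14, the monocyte lipopolysaccharide receptor, was detected on Naive 1 only. The part of these cells in the class II values was not tested.

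Among the macrophage markers Cd74 was nearest to the complement genes. Its r over 8 arrays was 0.92 with C1qa, 0.93 with C1qb and 0.90 with C1qc, and 0.89, 0.91 and 0.87 without Naive 1. The mean of the chains gave 0.30, 0.32 and 0.15 with the same genes, and -0.38, -0.39 and -0.51 without Naive 1. The other tested macrophage markers followed Cd74 less: Fcer1g with 0.78, Lyz1 with 0.62, Lyz2 with 0.56, Adgre1 with 0.49 and Tyrobp with 0.47. Without Naive 1 they gave 0.73, 0.76, 0.68, 0.03 and -0.19. Genes outside the macrophage marker list also had a high r with Cd74 over 8 arrays, among them Nlrc5 (0.83) and Ifi30 (0.79). Ifi30 encodes a lysosomal thiol reductase. Without Naive 1, Cd83 (0.95) and Ctss (0.94) exceeded every C1q gene, and Ikzf4, Nrp1 and Thy1 gave 0.85 each. Over 8 arrays those genes gave 0.38, 0.73, 0.65, 0.54 and 0.62. All these genes were named here after their values were seen. C1qb read 8.76, 8.51, 9.01 and 8.996 on the G-CSF arrays and 9.46, 7.78, 7.71 and 7.75 on the Naive arrays, the same division as Cd74, with Naive 1 beside the G-CSF arrays and the other Naive arrays below. Foxp3, the Treg factor, had an r of 0.78 with Cd74 and 0.10 with the chains, and 0.70 and -0.81 without Naive 1. Adgre1 and Tyrobp had an r of 0.78 and 0.83 with the chains over 8 arrays, but 0.00 and 0.05 without Naive 1.

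**Figure D5:**
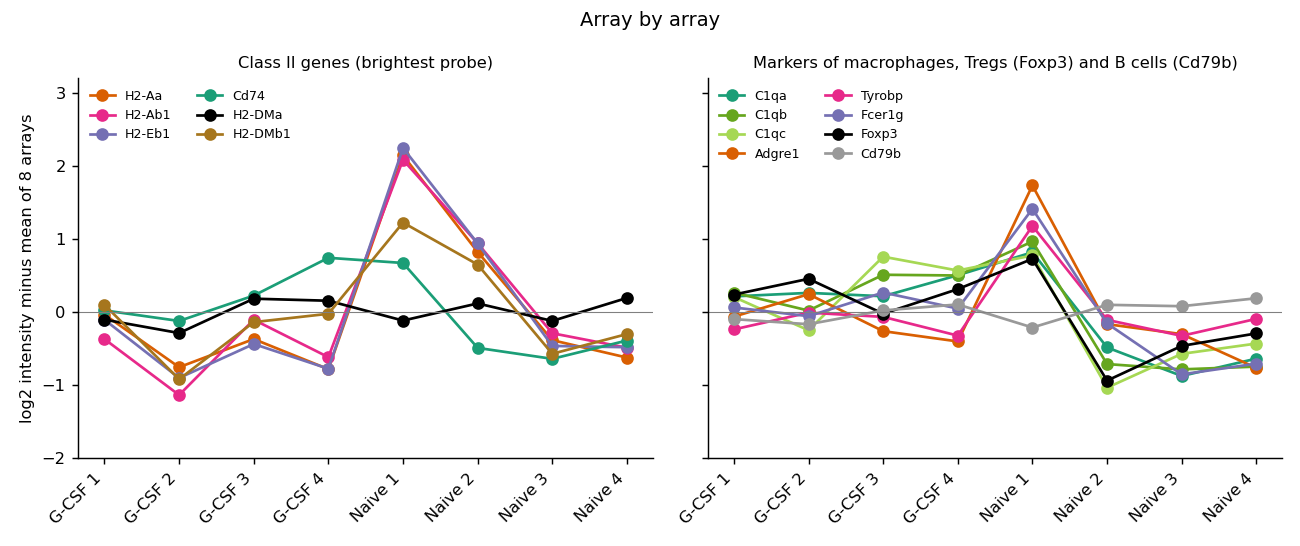
Log2 intensity minus the mean over 8 arrays for the MHC class II genes (left) and for 8 marker genes (right), array by array. The chains and H2-DMb1 are highest on Naive 1 and then Naive 2, whereas Cd74 and the C1q genes are high on Naive 1 and on G-CSF 3 and 4 and low on the other Naive arrays.

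Other marker lists showed 0 called genes by limma, where 2.20% of all tested probes were called. Of 10 neutrophil markers, 2 were tested, with a sum of 329 to 818 in G-CSF and 463 to 1798 in Naive arrays, where Naive 1 (1798) and another array (1757) were highest. S100a8, a calprotectin subunit gene of neutrophils, read 9.68 on Naive 1, 9.42 on Naive 3, 7.62 on G-CSF 1 and 4.66 to 4.98 elsewhere, and S100a9 8.17 on Naive 1, 8.13 on Naive 3 and 4.599 to 6.14 elsewhere. Ltf, lactoferrin, differed by -0.95 (limma adjusted p = 0.160) and Mmp9 by -0.40 (limma adjusted p = 0.321). Of 8 CD8 and NK markers, 3 were tested, with sums of 3031 to 4539 and 4179 to 5245, and Cd8b1 and Nkg7 differed by -0.33 and -0.34 (limma adjusted p = 0.258 and 0.262). Klrd1, the NK receptor gene CD94, was not tested but had the order of the chains, with 8.34 on Naive 1 and 7.74 on Naive 2, where alone it was detected, and 5.54 to 5.94 on the other 6 arrays. Klrb1c, which was tested, was by contrast lowest of all arrays on Naive 1, at 5.89 (difference 0.27, limma adjusted p = 0.517). Cd8a, Ncr1, Eomes and Gzmk were detected on 0 of 8 arrays. S100a8, S100a9, Klrd1 and Klrb1c were named after their values were seen, and the part of these cells in the class II values was not tested. Of 4 erythroid markers, 2 were tested, with sums of 555 to 1543 and 318 to 815, and the globin genes Hba-a1 and Hbb-bt differed by 0.38 and 1.01 (limma adjusted p = 0.513 and 0.106). Among the 9 T cell genes the T cell receptor complex genes Cd3d and Cd3g differed by 0.12 and 0.37 (limma adjusted p = 0.567 and 0.283), Thy1 by 0.36 (limma adjusted p = 0.228) and Cd4 by 0.39 (limma adjusted p = 0.243). Among the 9 Treg genes Ikzf4, which encodes the Ikaros family factor Eos, differed by 0.83 (limma adjusted p = 0.0720) Ctla4 by -0.57 (limma adjusted p = 0.0951) and Tnfrsf4 by 0.01 (limma adjusted p = 0.966).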

How the data were processed

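Total RNA of sorted Tregs was measured on 8 one-colour Illumina MouseRef-8 v2.0 bead arrays, whose titles give group and replicate number. Probe intensities without normalisation and a detection p-value per probe were deposited, per the file headers, and the submitters' processing notes name GenomeStudio, with no version. The authors also deposited log2 values, with steps not given in the sources used here. Their recomputation gave log2 of quantile-normalised intensities with each probe centred on its median, to an SD of at most 0.00446 per array, so their scale and direction are those of the intensities (column medians -0.00488 to 0.00568). As placed, 3.76% to 9.31% of intensity steps on an array went against the order of the detection p-values (tolerance 0.0001). Each p-value column was therefore joined to the intensities of the equally numbered array in the other group, where 0% did. This join rests on the values alone and sets no sample's group.

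The intensities went through neqc (limma 3.58.1, R 4.3.3), which subtracts a normexp background estimated with the detection p-values, adds an offset of 16, applies quantile normalisation and takes log2. A probe was tested where its detection p-value was below 0.01 on 4 or more of the 8 arrays, whichever their group (10205 of 25697). G-CSF and Naive arrays were compared with limma's lmFit and eBayes, Benjamini-Hochberg adjusted over the tested probes and called at 0.05, a procedure first tested on simulated data. The number of arrays limits the precision. Summed marker levels are sums over listed genes on the array of the linear normalised intensity less the offset. Of the probes, 23978 had 1 gene symbol, 0 several and 1719 are unnamed here, and the 11 class II probes were matched to RefSeq by Entrez ID. A gene stands for its brightest tested probe.

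The members, gene lists, alternatives and rules were chosen with earlier results of these data known. Named genes were, from each related list, the called genes and the 2 of smallest p, from each marker list the 2 brightest, the 2 of smallest p and defining markers below background, and the 10 nearest profiles. Over all tested probes, replicate numbers did not pair the samples: deviations from group means of same-numbered arrays correlated at -0.12, -0.02, 0.18 and 0.08. As alternatives the background correction was changed or left out, medians were scaled in place of quantiles, and the deposited log2 values, other filters, the p-values as placed, a trended robust variance, array weights, the replicate block, each array left out, the 2 brightest arrays left out and the mean of a gene's probes were tried.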

Additional observations from a re-analysis of the deposited data

Results flagged for a closer look

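In each group of 4 arrays, a gene was marked where its highest or lowest array lay further from the nearest other than Dixon's critical value allows, as a share of the whole range. Chance marks about 1 in 20 groups, and 15 of 188 were marked, 7 of them on Naive 1. Of 22 groups of class II probes 1 was marked, near the share that chance marks. It was Ciita, with 6.29 on Naive 1 against 4.73 to 4.82 on the other Naive arrays, where it was not detected. The chain genes were not marked, since their value on Naive 2 lay between Naive 1 and the rest.

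Naive 1 was also marked for the markers C1qb (9.46, others 7.71 to 7.78) and Tyrobp (8.03, others 6.53 to 6.76), for Ctla4 (14.67, others 14.00 to 14.09), and, as the lowest of its group, for Psme2 (10.29, others 10.71 to 10.79), Tnfrsf18 (13.41, others 13.85 to 13.91) and Cd2 (14.19, others 14.32 to 14.35). Naive 2 was marked as the lowest for Pdia3 (13.21, others 13.38 to 13.42) and Thy1 (13.79, others 14.01 to 14.04). Among the G-CSF arrays, G-CSF 1 was marked as the highest for Psmb9 (13.66, others 13.37 to 13.41) and Hba-a1 (10.34, others 8.85 to 9.08). G-CSF 2 was marked as the lowest for Ifi30 (8.63, others 9.01 to 9.04). G-CSF 3 was the lowest for Tnfrsf4 (14.19, others 14.56 to 14.63) and the highest for Cd3d (15.31, others 15.14 to 15.16), and G-CSF 4 the highest for C1qa (7.15, others 6.86 to 6.91).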

How the results depend on the processing

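Of the 10 class II probes, 0 were called with all arrays and under the alternatives other than array weights (3: H2-Ab1 ILMN_2631423, adjusted p = 0.0152, and both Cd74 probes, 0.86 with adjusted p = 0.0105 and 0.76 with adjusted p = 0.0146) and leaving out 1 array (0 to 1, the latter without G-CSF replicate 1). Their median log2 difference stayed negative, from -1.39 to -0.49 leaving out 1 array and -0.37 with array weights. Signs turned in 2 genes: H2-DMa was 0.24 with median scaling, 0.0315 with array weights and 0.0595, 0.00142 and 0.0264 without G-CSF replicate 2, Naive replicate 2 and Naive replicate 4 (-0.0974 to 0.0595 leaving out 1 array), and H2-DMb1 was 0.0575 with array weights. The count over all probes, 224 (97 higher and 127 lower), was 856 with median scaling (810 higher and 46 lower, where the median of all probes shifted by 0.29), 4 with no filter, 10 with detection p under 0.05 on 1 array, 3776 with array weights, 9 with the mean of a gene's probes, 0 without the 2 brightest arrays (limma; 1439 at an unadjusted p under 0.05) and 1 to 1089 leaving out 1 array, the highest without Naive 1. Without G-CSF replicate 1, where 1 class II probe was called, the count was 712. The replicate block pairs arrays by a number that did not pair them over all tested probes. With it, 4 probes and 0 class II probes were called, and the median difference of the class II probes was -1.03. The SE of H2-Aa was 0.35 with the block against 0.51 without it. By limma, 6 of the 10 class II probes had an unadjusted p under 0.05 with the block, against 4 without it. The cause of these shifts was not tested. With 4 arrays a group, the spread of the chain genes between arrays limits which differences can be called.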
